A study of Homo sapiens with 18 samples.

Results

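The MYC and MAX network was followed through the gene counts of HG3, MEC2 and PCL12 cells, with and without CpG stimulation, by its 9 members MYC, MYCL, MAX, MXD1, MXD3, MXD4, MXI1, MNT and MLX. The members were chosen by symbol from the 56609 symbols of the deposited table, with no threshold on measured values, and all 9 had enough counts to be tested. HG3, MEC2 and PCL12 are established EBV-positive cell lines derived from chronic lymphocytic leukemia (CLL), a malignancy of mature B cells, and the study gives mutated IGHV genes for MEC2 and unmutated ones for the other lines. CpG ODN-2006, a class B oligonucleotide whose unmethylated CpG motifs activate the endosomal receptor TLR9, was given at 2.5 μg/ml for 4 h. Each line had 3 CpG-stimulated and 3 unstimulated libraries, 18 in 6 groups, and each replicate number held 1 stimulated and 1 unstimulated sample. The labels name no other treatment and no genetic change made for the experiment, and each line stands for a single tumor that had adapted to culture.

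MYC is a transcription factor that dimerizes with MAX through helix-loop-helix and leucine zipper domains and binds the E-box CACGTG, where it recruits coactivators and raises genes of ribosome production, nucleotide synthesis and the cell cycle. The MXD proteins, MXI1 (also known as MXD2) and MNT compete for MAX, bind the same E-boxes and recruit SIN3 and histone deacetylases, so they lower genes that MYC raises. MLX pairs with some MXD proteins and with the glucose-responsive factors MLXIP (MondoA) and MLXIPL (ChREBP), and connects the network to metabolism. In B cells, MYC is an early target of receptor and TLR signaling, is short-lived as RNA and as protein, and is needed for entry into the cell cycle.

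Because the network acts at E-boxes, the members' own promoters were searched for the letters CACGTG, which read alike on both strands, in windows from 250 bases before to 50 bases after each RefSeq start (assembly GRCh38.p14). A window was found for the 8 members other than MYC, 11 windows in all, and 3 of the 11 held the motif, as did 7.26% of 35116 windows of the same length. They belonged to MXD4, MNT and MLX, and are printed with up to 40 bases on each side because these searched windows hold the letters that the network binds. A match describes letters only, since no binding was measured. Capitals mark the E-box.
MXD4, chr4:2262302-2262359, minus strand, 238 bases before the start: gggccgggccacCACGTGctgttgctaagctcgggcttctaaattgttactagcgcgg
MNT, chr17:2401208-2401293, minus strand, 193 bases before the start: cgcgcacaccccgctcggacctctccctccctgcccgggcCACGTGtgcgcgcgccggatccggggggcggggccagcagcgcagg
MLX, chr17:42567010-42567095, plus strand, 50 bases before the start: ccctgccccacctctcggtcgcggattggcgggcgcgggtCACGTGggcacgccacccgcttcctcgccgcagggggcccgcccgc

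The libraries held 20382943 to 67308932 counts (median 34187430), so that 3 counts, the floor of detection, equaled 0.0429 to 0.155 CPM, the unit of counts scaled to library size, here with TMM factors. The B cell markers MS4A1, CD79A, CD79B and PAX5 were above 1 CPM in every library, with MS4A1 at 589 to 1842 CPM and PAX5 at 68.7 to 643 CPM. Of the 4 T cell markers, CD3D and CD3G were not among the genes tested, and CD3E and CD2 summed to 0.0302 to 2.40 CPM. The 4 myeloid markers summed to 0.499 to 1.91 CPM. CD5, a defining antigen of CLL, stood at 21.9 to 69.6 CPM in HG3 but at 0 to 0.414 CPM in MEC2 and 0.0929 to 1.35 CPM in PCL12. A pair of features of the libraries touches the results. For 45 genes that MEC2 expressed at 20 CPM or more and PCL12 replicate 1 at 10% of that level or less, the median level in PCL12 replicates 2 and 3 was 29.0% to 31.3% of that in MEC2, against 2.26% and 2.36% in replicate 1, where the choice of the genes made them low. These 4 libraries are called the PCL12 libraries with MEC2-high genes, and where their transcripts came from was not tested. Mitochondrial transcripts took 20.2% of the counts in HG3 unstimulated replicate 2 and 19.7% in MEC2 CpG replicate 2, against 2.82% to 9.28% in the others. In RNA from whole cultures, less RNA per cell and fewer cells with the RNA cannot be told apart.

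MYC was expressed in every library, and its level after CpG did not differ from that in unstimulated cells beyond the spread between replicates in any line. In HG3, replicates 1, 2 and 3 held 461, 366 and 594 CPM after CpG and 414, 137 and 590 CPM without. The value of 137 CPM, in the library rich in mitochondrial transcripts, was the lowest of the 18, and the groups overlapped. In MEC2 the values were 424, 309 and 237 CPM after CpG and 309, 341 and 218 CPM without. In PCL12 they were 263, 381 and 239 CPM after CpG and 254, 372 and 211 CPM without. The ratio of each stimulated library to its own unstimulated partner was above 1 in 8 of 9 pairs. On the log2 scale the HG3 pairs gave 0.16, 1.42 and 0.01, those of MEC2 0.45, -0.14 and 0.12, and those of PCL12 0.05, 0.04 and 0.18. Among 13991 genes averaging 1 CPM or more, 2.77% were higher in 8 or 9 pairs. In the 5 pairs without the PCL12 libraries with MEC2-high genes and without the pairs of the libraries rich in mitochondrial transcripts, MYC was higher in 5, as were 2.92% of genes, and with library totals in place of TMM factors it was higher in 7 of 9.

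The fitted Log2FC of MYC was 0.32 in HG3 (SE 0.37, 1.25-fold with a 95% confidence interval of 0.737 to 2.11), 0.16 in MEC2 (SE 0.37, 1.117-fold, 0.661 to 1.89) and 0.08 in PCL12 (SE 0.37, 1.06-fold, 0.625 to 1.79). Averaged over the lines it was 0.19 (SE 0.21, 1.14-fold, 0.840 to 1.54; adjusted p = 1.00, edgeR). In this fit a mean increase above 1.54-fold lay outside the interval. Without HG3 unstimulated replicate 2, the Log2FC of MYC was -0.06 in HG3 and 0.06 on average. With the replicate number as a block, the Log2FC of MYC in edgeR was 0.52 in HG3 and 0.25 on average (SE 0.12), both with a nominal P under 0.05, and neither passed after adjustment over all genes.

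MYCL, a paralog of MYC with a narrower range of tissues (chr1:39895428-39902256), was below 1 CPM in every HG3 and MEC2 library and above it in every PCL12 library. The HG3 libraries had 24, 10 and 20 MYCL counts with CpG and 4, 16 and 9 in its absence, which came to 0.628, 0.302 and 0.631 CPM and to 0.0879, 0.825 and 0.237 CPM. In MEC2 it stood at 0.591, 0.763 and 0.831 CPM after CpG and at 0.544, 0.817 and 0.883 CPM without. The PCL12 libraries had 377, 103 and 112 MYCL counts with CpG and 91, 49 and 52 in its absence, or 5.39, 4.47 and 2.84 CPM against 2.92, 1.75 and 1.21 CPM. In all 3 PCL12 pairs the stimulated library was the higher one, by 0.89, 1.35 and 1.24 on the log2 scale, but the groups overlapped, because replicate 1 was high in both. The fitted Log2FC in PCL12 was 1.11 (SE 0.70, 2.16-fold, 0.803 to 5.84; adjusted p = 1.00, edgeR). The HG3 pairs gave 2.84, -1.45 and 1.41 from few counts, and the MEC2 pairs 0.12, -0.10 and -0.09. MYCL levels in PCL12 replicates 2 and 3 were below those of replicate 1 in both states, and the part of the MEC2-high genes' source in this was not tested.

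**Figure D1:**
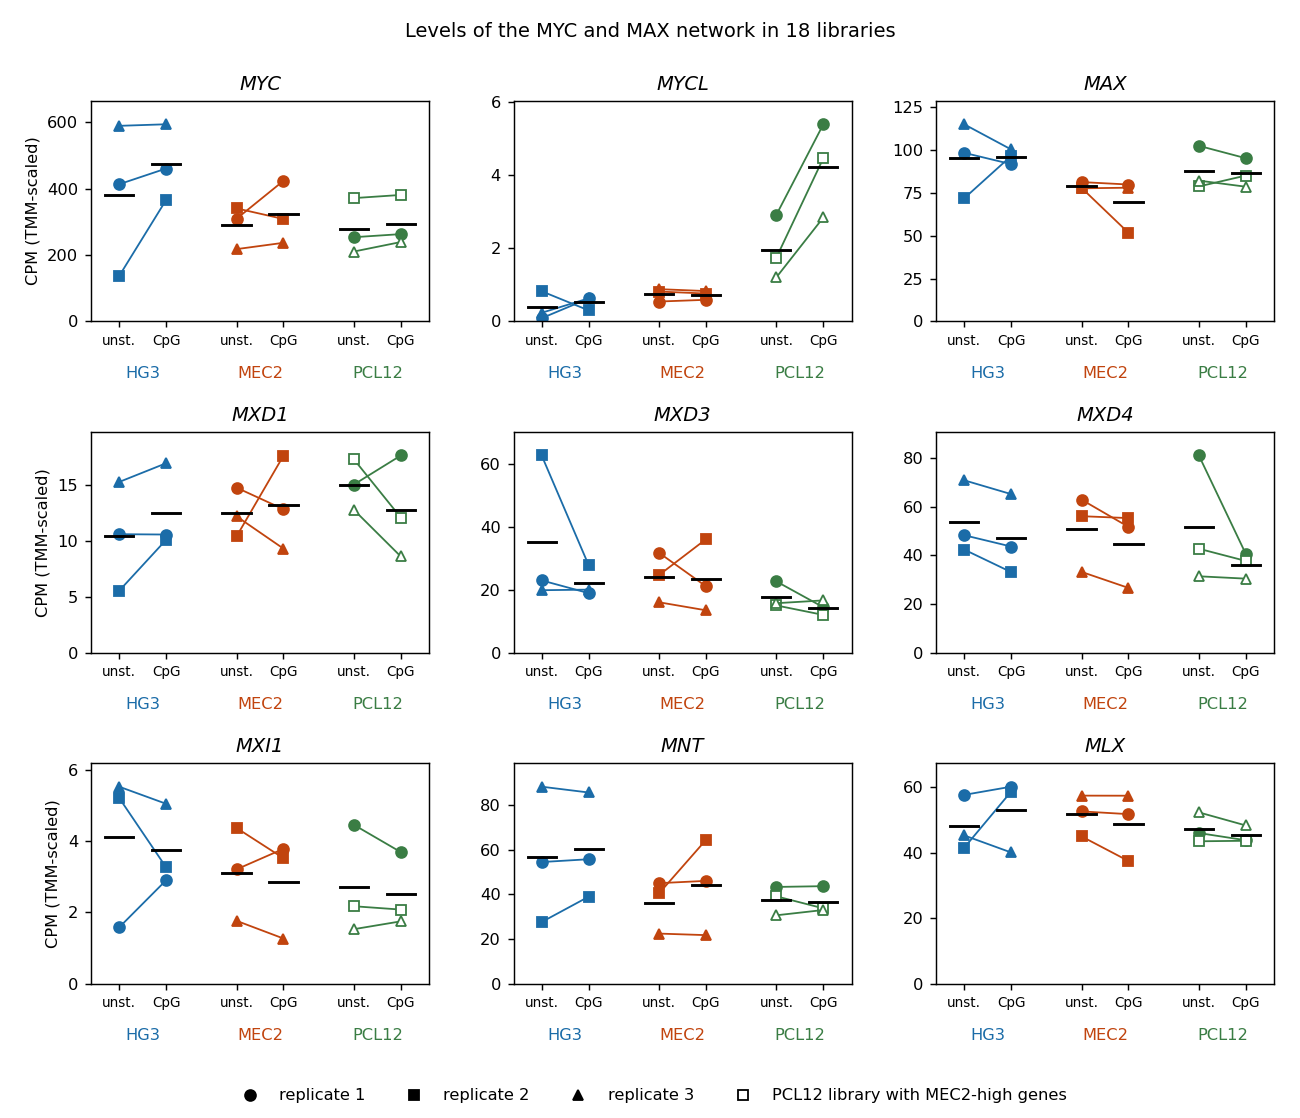
Level of each member in CPM (vertical axis, linear, from 0, own range for each gene) in unstimulated and CpG-stimulated cells of the 3 lines, where lines join libraries of the same replicate number, bars are group means of 3 libraries and open symbols are the PCL12 libraries with MEC2-high genes. MYC in HG3 without CpG runs from 137 to 590 CPM, MYCL stands at 1.21 CPM or more in PCL12 alone, and the MXD4 lines all slope downward (8 of 9 with RLE factors or library totals).

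MAX, the partner that MYC and most of its antagonists need for binding DNA (chr14:65006174-65102695), held one of the steadiest levels of the network. In HG3 it stood at 91.8, 96.5 and 100 CPM after CpG and at 98.4, 71.8 and 115 CPM without. In MEC2 the values were 79.9, 51.7 and 78.0 CPM after CpG and 81.3, 77.9 and 77.7 CPM without, and in PCL12 95.2, 85.1 and 78.6 CPM against 102, 78.8 and 82.2 CPM. The 2 libraries rich in mitochondrial transcripts were the lowest of their groups, at 71.8 CPM in HG3 and 51.7 CPM in MEC2. The Log2FC averaged over the lines was -0.06 (SE 0.13), with an interval of -0.33 to 0.21. The SD of log2 levels between replicates was 0.23 for MAX and for MLX and 0.47 to 0.80 for the other members. On the opposite strand, exons of FNTB cover 13.1% of the exon bases of MAX, and the study's methods name a stranded reverse library protocol but not the strand setting of the counting. Where libraries are made from transcript ends, as with one of the named kits, such a share of exon bases need not be the share of counts.

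MXD4 (chr4:2247432-2262109), a repressive MAX partner linked to differentiation, was the member whose pairs all pointed one way. In HG3 it stood at 43.7, 33.1 and 65.2 CPM after CpG and at 48.3, 42.4 and 70.9 CPM without. In MEC2 the values were 51.7, 55.4 and 26.6 CPM after CpG and 62.9, 56.1 and 33.2 CPM without. In PCL12 they were 40.6, 37.7 and 30.4 CPM after CpG and 81.1, 42.7 and 31.4 CPM without. The groups overlapped in every line, and within each pair the stimulated library was the lower one. The log2 ratios of the HG3 pairs were -0.15, -0.36 and -0.12, those of MEC2 -0.28, -0.02 and -0.32, and those of PCL12 -0.999, -0.18 and -0.05, and 0.457% of the 13991 genes were lower in all 9 pairs. MXD4 was lower in 7 of 7 pairs without the PCL12 libraries with MEC2-high genes, as were 1.24% of genes, and in 5 of 5 without the libraries rich in mitochondrial transcripts too, as were 6.97%. With RLE factors or with library totals it was lower in 8 of 9. The mean Log2FC was -0.30 (SE 0.20, 0.815-fold, 0.616 to 1.08; adjusted p = 1.00, edgeR), and -0.27 with the replicate block, with a nominal P under 0.05 that did not pass after adjustment. In PCL12 the Log2FC of MXD4 was -0.51 with all libraries and -0.03 without unstimulated replicate 1, and without that library the mean was -0.14.

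MXD3 (chr5:177301461-177312757), a family member expressed in dividing cells, varied most in HG3, where it stood at 18.9, 27.8 and 19.996 CPM after CpG and at 22.9, 62.6 and 19.8 CPM without. The value of 62.6 CPM came from the same HG3 library in which MYC was lowest. In MEC2 MXD3 held 21.1, 36.0 and 13.4 CPM after CpG and 31.7, 24.6 and 16.0 CPM without, and 36.0 CPM was again in the library rich in mitochondrial transcripts. In PCL12 the values were 14.4, 11.97 and 16.6 CPM against 22.6, 14.98 and 15.7 CPM. The Log2FC in HG3 was -0.66 (SE 0.38; adjusted p = 1.00, edgeR) with all libraries and 0.08 without unstimulated replicate 2, and with the replicate block it was -0.48, at a nominal P just under 0.05. The mean Log2FC was -0.33 (SE 0.22), with the block -0.29, and -0.09 without HG3 unstimulated replicate 2. Exons of PRELID1 on the opposite strand and of RAB24 on the same strand cover 24.2% and 19.5% of the exon bases of MXD3, so its counts may hold or lack reads of these neighbors.

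MXD1 (chr2:69897688-69942945), an antagonist of MYC that rises as blood cells mature, stood at 10.5, 10.1 and 16.9 CPM after CpG and at 10.6, 5.52 and 15.2 CPM without in HG3. In MEC2 it had 12.8, 17.6 and 9.28 CPM after CpG and 14.7, 10.4 and 12.2 CPM without, and in PCL12 17.6, 12.1 and 8.58 CPM against 15.004, 17.3 and 12.7 CPM. The pair ratios went both ways in every line, and the mean Log2FC was 0.04 (SE 0.21). On the log2 scale the HG3 pairs gave -0.004, 0.87 and 0.15, with 0.87 in the pair of the library rich in mitochondrial transcripts. MXI1 (chr10:110207605-110287365), which antagonizes MYC in the same manner, stood at 1.27 to 5.53 CPM in the 18 libraries. Its pairs were higher in 3 and lower in 6 of 9, with log2 ratios from -0.67 to 0.88, and its mean Log2FC was -0.12 (SE 0.34). After MYCL, it was the member whose replicates varied most, with an SD of 0.75 on the log2 scale.

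MNT (chr17:2384073-2401104), a broadly expressed repressor among the MAX partners, followed the replicate number. In HG3 it stood at 55.7, 39.0 and 85.6 CPM after CpG and at 54.5, 27.7 and 88.2 CPM without. In MEC2 it had 46.1, 64.4 and 21.8 CPM after CpG and 45.0, 40.5 and 22.5 CPM without, and in PCL12 43.7, 33.8 and 33.03 CPM against 43.3, 39.1 and 30.7 CPM. Both MEC2 libraries of replicate 3 were thus near 22 CPM while the other 4 lay between 40.5 and 64.4 CPM. The SD between replicates was 0.59 on the log2 scale and that of the pair ratios 0.30, and the mean Log2FC was 0.11 (SE 0.22). MLX (chr17:42567072-42573239) ranged from 37.5 to 60.1 CPM over all libraries, with a mean Log2FC of -0.00 (SE 0.14) and an interval of -0.28 to 0.28. Exons of PSMC3IP on the opposite strand cover 18.2% of the exon bases of MLX.

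**Figure D2:**
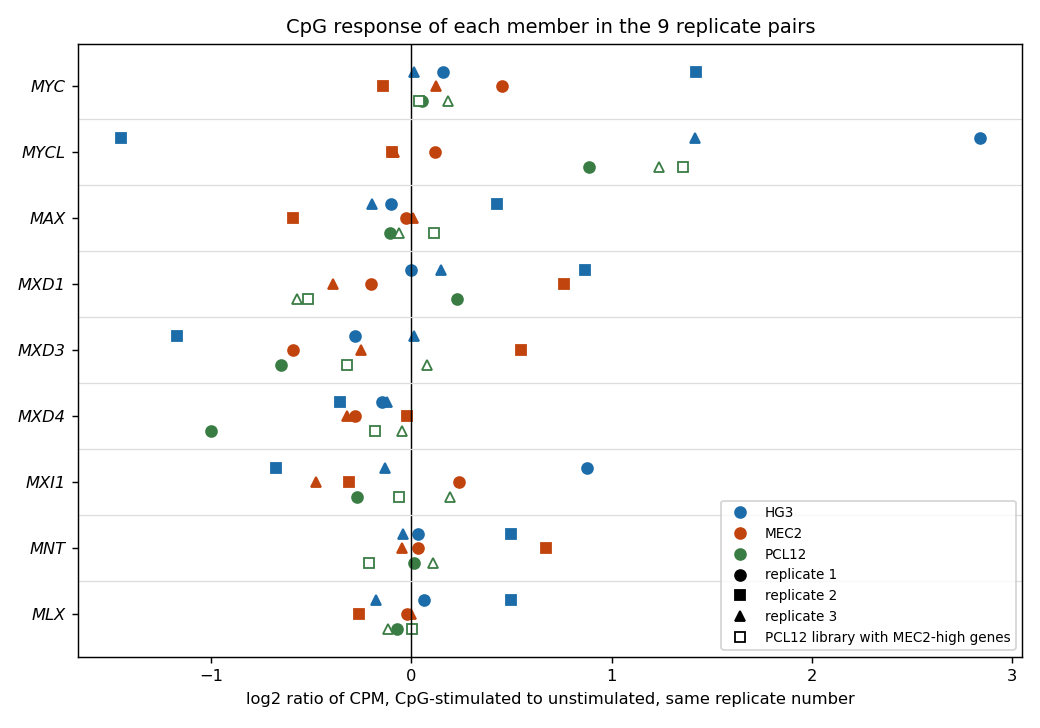
Log2 ratio of CPM in each CpG-stimulated library to the unstimulated library of the same replicate number (horizontal axis) for the 9 members, with colors for lines, shapes for replicates and open symbols for PCL12 libraries with MEC2-high genes. MXD4 is left of 0 in 9 of 9 pairs (8 of 9 with RLE factors or library totals), MYC right of 0 in 8 of 9 (7 of 9 with library totals), and the HG3 replicate 2 pair is the most distant one for MYC and MXD3.

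Across the network, 0 of 9 members passed an adjusted p of 0.05 for CpG in edgeR in any line or on average, and 0 of 9 met the DEG definition of the study (nominal P value under 0.01 and |Log2FC| of at least 1) or a nominal P under 0.05. The response over all genes was small by the same tests: 0.00314% of 31872 genes passed the adjusted threshold in HG3, 0.00314% in MEC2, 0% in PCL12 and 0.00941% on average. DEGs were 0.496%, 0.251%, 0.116% and 0.527% of genes, and 3.73%, 2.46%, 2.09% and 4.04% had a nominal P under 0.05. The study selected DEGs with limma and reported more of them in each line than this edgeR fit gave. A figure legend of the study speaks of a paired contrast, while this fit had no replicate block. DESeq2 also gave 0 members at either level, and limma-voom 0 after adjustment and 1 at the nominal level, MYCL in PCL12. With the replicate block in edgeR, 2 members in HG3 (MYC and MXD3) and 3 on average (MYC, MXD3 and MXD4) had a nominal P under 0.05, as did 3.59% and 4.54% of genes, and 0 passed after adjustment, as against 0.135% and 0.555% of genes. With the block in limma-voom, MXD4 on average and MYCL and MXD4 in PCL12 had a nominal P under 0.05, as did 4.56% and 3.83% of genes, and 0 members did in HG3 or MEC2, or passed after adjustment. The fitted Log2FC was above 0 in 6 of 9 members in HG3, 3 in MEC2, 2 in PCL12 and 4 on average, with medians of 0.08, -0.04, -0.06 and -0.00, while 47.1%, 47.2%, 52.1% and 54.2% of all genes tested were above 0. The stimulated and unstimulated groups of a line overlapped for all 9 members in all 3 lines. Of the 13991 genes, all stimulated libraries lay above all unstimulated ones for 1.24% (HG3), 2.79% (MEC2) and 1.42% (PCL12), and below them for 1.5%, 2.86% and 2.32%.

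**Figure D3:**
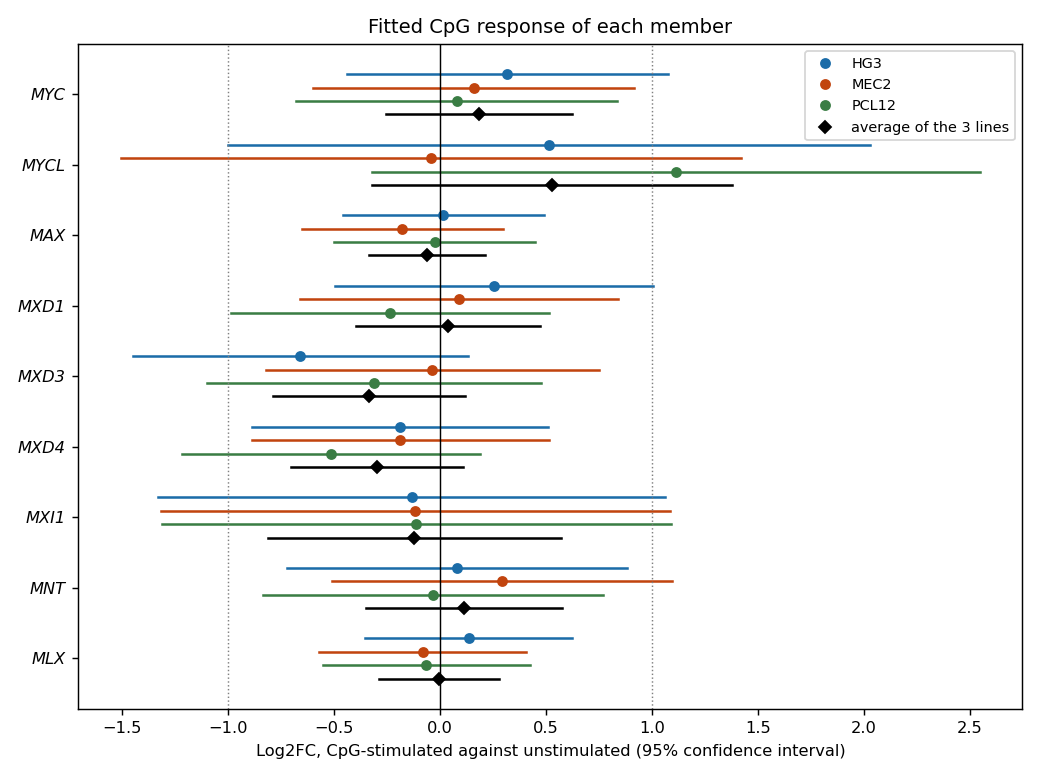
Fitted Log2FC of CpG-stimulated against unstimulated cells (horizontal axis) for each member in the 3 lines and averaged over them, with 95% confidence intervals from edgeR as bars and dotted lines at -1 and 1, the fold limit of the DEG definition. The fit has no replicate block. Every interval crosses 0, and the intervals of MAX and MLX are the narrowest, from -0.33 to 0.21 and from -0.28 to 0.28 on average. With the block in edgeR, MYC and MXD3 in HG3 and MYC, MXD3 and MXD4 on average had a nominal P under 0.05.

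The response to CpG was also compared between lines by interaction terms. No member passed an adjusted p of 0.05 or a nominal P of 0.05 in edgeR for MEC2 against HG3, PCL12 against HG3 or PCL12 against MEC2, where 0%, 0.00314% and 0% of genes passed after adjustment and 4.1%, 4.16% and 3.23% nominally. The largest differences were those of MYCL, by 1.15 between PCL12 and MEC2 (SE 0.99), and of MXD3, by 0.62 between MEC2 and HG3 (SE 0.54). For MYC the difference was -0.16 between MEC2 and HG3 (SE 0.52, interval -1.23 to 0.91).

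The change of MYC was also set against that of each other member within each pair. MYC was higher relative to MLX in 9 of 9 pairs (median log2 change 0.12, from 0.03 to 0.92), as it was relative to 4.39% of 13990 genes. Relative to MAX it was higher in 8 of 9 (median 0.25, from -0.08 to 0.99), as it was relative to MXD4 (median 0.30, from -0.12 to 1.77) and to MNT (median 0.12, from -0.81 to 0.92), and 19.7% of genes gave 8 or 9. Relative to MXD3 (median 0.37, from -0.69 to 2.59) and MXI1 (median 0.17, from -0.72 to 2.09) it was higher in 7 of 9, and 42.1% of genes gave 7 or more. Relative to MXD1 it was higher in 6 of 9 (median 0.51, from -0.90 to 0.75) and relative to its paralog MYCL in 3 of 9 (median -0.83, from -2.68 to 2.87). These ratios all share the MYC values and describe these pairs, without a test.

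Between unstimulated lines, MYCL in PCL12 against HG3 was the single member call. Its Log2FC was 2.42 (SE 0.75, 5.34-fold, 1.83 to 15.6; adjusted p = 0.0398, edgeR), 1 of 9 members where 9.44% of genes passed. The unstimulated PCL12 libraries held 1.21 to 2.92 CPM and those of HG3 0.0879 to 0.825 CPM, without overlap. The call was lost without PCL12 replicates 2 and 3 (Log2FC 3.00, adjusted p = 0.149), without HG3 unstimulated replicate 1 (1.91, 0.145) or 3 (2.17, 0.141), without PCL12 unstimulated replicate 1 (2.00, 0.160) or 2 (2.49, 0.0710), and with no low-count filter (2.43, 0.0504), while the direction stayed. The replicate block, limma-voom and DESeq2 each gave the same count of 1 of 9. Against MEC2, MYCL in PCL12 was 1.38 higher on the log2 scale (SE 0.71; adjusted p = 0.479, edgeR), and MEC2 stood between PCL12 and HG3.

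The other members did not differ between unstimulated lines after adjustment. For MYC the order was HG3 (380 ± 228 CPM, SD, n = 3), MEC2 (289 ± 63.8) and PCL12 (279 ± 83.4), and with all libraries neighbors in that order differed by less than the spread between replicates. Without HG3 unstimulated replicate 2, rich in mitochondrial transcripts, MYC was lower than in HG3 by a Log2FC of -0.77 in MEC2 and -0.82 in PCL12, and MNT by -0.97 and -0.89, each with a nominal P under 0.05 that did not pass after adjustment. Without HG3 unstimulated replicate 3, the same differences were 0.07 and 0.02 for MYC and -0.19 and -0.13 for MNT. MXD3 was lower in PCL12 (17.8 ± 4.21 CPM) than in HG3 (35.1 ± 23.8), with a Log2FC of -0.98 (SE 0.39; adjusted p = 0.124, edgeR), which passed with no low-count filter (adjusted p = 0.0397) and without HG3 unstimulated replicate 3 (0.0478). The Log2FC was -0.24 without HG3 unstimulated replicate 2. It was 0.12 without the PCL12 libraries with MEC2-high genes and those rich in mitochondrial transcripts. MNT was highest in HG3 (56.8 ± 30.3 CPM), followed by PCL12 (37.7 ± 6.46) and MEC2 (36.0 ± 11.9). MAX ran from 95.1 ± 21.8 CPM in HG3 over 87.8 ± 12.8 in PCL12 to 79.0 ± 2.03 in MEC2, and MXD4 from 53.9 ± 15.04 in HG3 over 51.8 ± 26.0 in PCL12 to 50.8 ± 15.6 in MEC2. MXD1 was 15.002 ± 2.26 CPM in PCL12, 12.4 ± 2.19 in MEC2 and 10.4 ± 4.86 in HG3. MXI1 was 4.11 ± 2.19, 3.11 ± 1.30 and 2.72 ± 1.54 CPM in HG3, MEC2 and PCL12, and MLX 51.6 ± 6.27, 48.1 ± 8.44 and 47.2 ± 4.54 CPM in MEC2, HG3 and PCL12. Without PCL12 replicates 2 and 3, several of these orders turned, with 1 unstimulated PCL12 library left. PCL12 was then above HG3 on the log2 scale by 0.12 for MAX, 0.61 for MXD4 and 0.14 for MXI1, where all libraries gave -0.12, -0.06 and -0.59. Against MEC2 it was higher by 0.71 for MXD4 and 0.54 for MXI1, where all libraries gave 0.03 and -0.19, and none of these passed the test. In MEC2 against HG3, 0 of 9 members passed (9.78% of genes), and in PCL12 against MEC2 0 of 9 (2.05%).

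The genes around the network were read from 6 lists of 77 genes, of which 76 were tested, all but EIF4A1. CIP2A, a stabilizer of MYC protein, was listed as KIAA1524. Of 39 tested targets that MYC is known to raise, 28 had a Log2FC above 0 on average and 11 below, with a median of 0.07 (all tested genes 0.03, with 54.2% above 0). In HG3 30 of 39 were above 0 (median 0.14 against 0 for all genes), in MEC2 23 (median 0.04 against 0) and in PCL12 30 (median 0.08 against 0.02). For genes averaging 1 CPM or more, the medians were 0.019 in HG3, 0.005 in MEC2, -0.013 in PCL12 and 0.002 on average. The HG3 values include the library rich in mitochondrial transcripts. None of the 39 targets passed the adjusted threshold in edgeR. At a nominal P under 0.05, 0, 2 and 0 were higher in HG3, MEC2 and PCL12, where 1.58%, 1.51% and 1.37% of all genes were, and 1 was higher on average, where 2.6% were. None was lower at that level. With the replicate block, 4, 3 and 1 of 39 were higher at a nominal P under 0.05 in HG3, MEC2 and PCL12, where 2.21%, 1.83% and 1.09% of genes were. Those in HG3, named with the other nominal genes of the block after their values were seen, were PPAT (the first enzyme of de novo purine synthesis), TFRC (the transferrin receptor), ODC1 (the first enzyme of polyamine synthesis) and HK2 (a hexokinase), with Log2FC of 0.65, 0.60, 0.45 and 0.42. Without the replicate 2 pair, which holds the HG3 library rich in mitochondrial transcripts, they were 0.06, 0.08, -0.02 and 0.26, and none had a nominal P under 0.05. In PCL12 the gene was TFRC (0.44), and in MEC2 they were CCND2, MYBBP1A and the cell cycle factor E2F1 (0.45, and 0.10 without the replicate 2 pair).

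CCND2, which encodes the G1 cyclin D2, had the smallest P among these targets. In MEC2 it stood at 99.6, 146 and 157 CPM after CpG and at 58.1, 51.2 and 127 CPM without, with a Log2FC of 0.77 (SE 0.31; adjusted p = 1.00, edgeR). The MEC2 groups overlapped, and each stimulated library was above its partner. With the replicate block CCND2 rose in MEC2 (Log2FC 0.86, adjusted p = 0.0182, edgeR), 1 of 39 where 0.295% of genes were called higher. The library at 146 CPM was the one rich in mitochondrial transcripts, and the call was lost without the replicate 2 pair (Log2FC 0.54, adjusted p = 1.00, edgeR). In PCL12 the pairs gave 0.80, 0.18 and 0.17 and in HG3, where the gene stood at 377 to 549 CPM, 0.09, -0.03 and -0.06. MYBBP1A, a nucleolar protein of ribosome production, was the other nominal target in MEC2 (Log2FC 0.53, SE 0.24; adjusted p = 1.00, edgeR), with pairs of 0.12, 1.33 and 0.03. The pair of 1.33 had 246 CPM in the library rich in mitochondrial transcripts, and without that library the Log2FC of MYBBP1A was 0.22 (SE 0.21). PUS7, a pseudouridine synthase, had a mean Log2FC of 0.24 (SE 0.16). With the block, 4 targets had a nominal P under 0.05 on average, where 2.72% of genes were higher: CCND2, PUS7, TFRC (Log2FC 0.43) and PPAT (0.32). Without the replicate 2 pairs of HG3 and MEC2, a setting chosen after seeing the data, CCND2 (Log2FC 0.32, adjusted p = 0.00144, edgeR) and TFRC (0.28, 0.00323) of these 4 passed the adjusted threshold, where 0.846% of 30605 genes were called higher, PUS7 stayed nominal (0.18) and PPAT did not (0.12). That setting kept the PCL12 libraries with MEC2-high genes.

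Among 6 targets that MYC lowers, 2 were above 0 and 4 below on average, with a median of -0.09, and all 6 were below 0 in PCL12, where 52.1% of genes were above. CDKN1B was at -0.008 there. With the replicate block CDKN1B (0.003), CDKN2B (0.06) and GADD45A (0.02) were above 0 in PCL12, and CDKN1A, NDRG1 and CCNG2 below. CCNG2, an atypical cyclin, had a mean Log2FC of -0.18 (SE 0.23), CDKN1A, the cell cycle inhibitor p21, -0.16 (SE 0.22), and the stress gene GADD45A 0.18 (SE 0.23). GADD45A was higher in 8 of 9 pairs, as 2.77% of genes were in 8 or 9. Of the 16 corepressors and coactivators, 8 were above 0 and 8 below, with a median of 0.01. ZBTB17, the MIZ-1 protein through which MYC represses, stood at 0.21 (SE 0.16), the chromatin adaptor WDR5 at 0.13 (SE 0.12) and the remodeler EP400 at 0.11 (SE 0.14). With TMM factors, the single scaling used for this count, WDR5 was higher in 9 of 9 pairs, by 0.01 to 0.33, as were 0.608% of the 13991 genes. In the edgeR fit without the block, none of these 22 targets and cofactors passed a nominal P of 0.05 on average. With the block, ZBTB17 (Log2FC 0.54) and the cell cycle inhibitor CDKN2B (1.89, at a mean of 2.29 CPM), both singled out after their values were seen, had a nominal P under 0.05 in MEC2, where 1.83% of genes were higher, and neither passed after adjustment. The ZBTB17 pairs in MEC2 were -0.02, 1.20 and 0.44, with 90.7 CPM in the library rich in mitochondrial transcripts, and without the replicate 2 pair neither had a nominal P under 0.05 (Log2FC 0.21 for ZBTB17 and 1.03 for CDKN2B).

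For the 9 genes of MYC protein turnover, 6 were above 0 on average (median 0.04) and all 9 in HG3, where 47.1% of genes were. USP36, a nucleolar deubiquitinase of MYC, stood at 0.25 (SE 0.17), the ubiquitin ligase subunit FBXW7 at 0.16 (SE 0.14) and the ligase HUWE1 at 0.15 (SE 0.18). The HG3 replicate 2 pair gave 0.81 for USP36, 0.46 for FBXW7 and 1.22 for HUWE1, and the other HG3 pairs -0.26 to 0.08. The MEC2 replicate 2 pair, with the other library rich in mitochondrial transcripts, gave 0.96, 0.27 and 0.71. With the replicate block USP36 had a nominal P under 0.05 on average (Log2FC 0.27), 1 of 9 where 2.72% of genes were higher, which did not pass after adjustment and was lost without both replicate 2 pairs (0.10). USP36 was higher in 7 of 9 pairs, in 7 of 7 without the PCL12 libraries with MEC2-high genes, as were 1.33% of genes, and in 5 of 5 without those rich in mitochondrial transcripts too, as were 2.92%. MGA, a large MAX partner that represses germline genes, had a mean Log2FC of 0.11 (SE 0.18) and MLXIP one of 0.04 (SE 0.14), while MYCN and MLXIPL had means of 0.0189 and 0.0785 CPM. TXNIP, a brake on glucose uptake, and ARRDC4, both targets of MLX with MondoA, stood at -0.16 (SE 0.23) and 0.05 (SE 0.34).

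**Figure D4:**
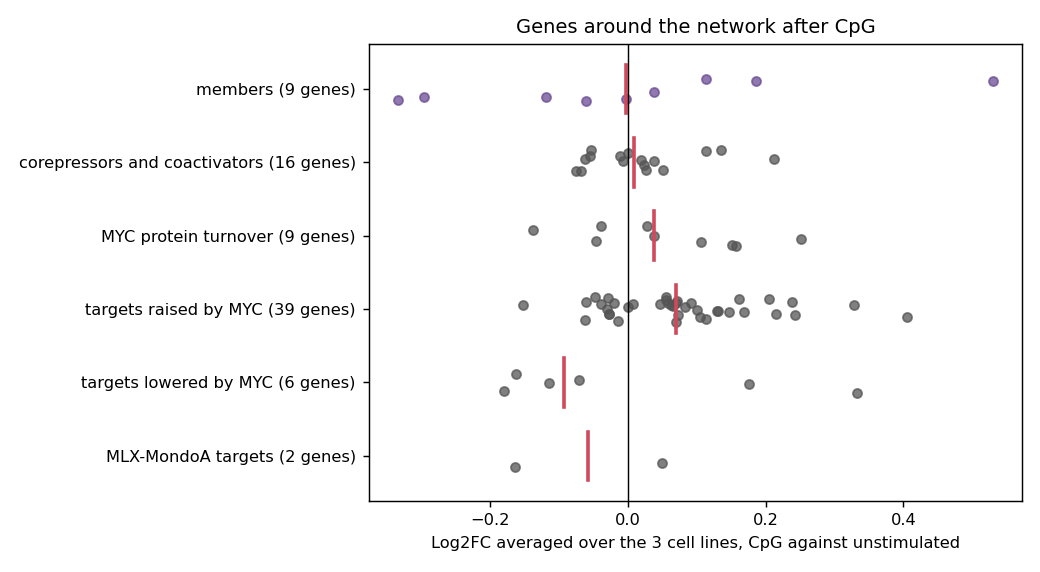
Log2FC of CpG-stimulated against unstimulated cells averaged over the 3 lines (horizontal axis) for each member and for each gene of 5 lists around the network, with 1 point per gene and a vertical bar at the median of each list. The medians lie between -0.09 and 0.07, and CCND2 at 0.41 is the highest of the targets raised by MYC.

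Genes whose levels followed MYC most closely were read from 9305 genes averaging 10 CPM or more, as a description of these libraries. Over the 18 libraries, the highest Pearson correlations of log2 CPM were those of NFKB1 (0.95), which encodes the p105 and p50 subunits of NF-κB, PHLPP2 (0.948), RNF19B (0.936), ZNFX1 (0.919) and HIVEP1 (0.916). Over the 9 log2 ratios of pairs they were GART (0.989), an enzyme of purine synthesis, OPA3 (0.987), CANT1 (0.986), IP6K1 (0.985) and PPIF (0.985). The points share libraries, lines and depth, and the HG3 replicate 2 pair stood apart at a MYC ratio of 1.42 while the other 8 lay between -0.14 and 0.45.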

How the data were processed

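RNA of 18 samples was sequenced as single reads, and the authors deposited raw counts per gene symbol in 1 table. The submitters' processing notes name FastQC, MultiQC, Trimmomatic, STAR, featureCounts and the build hg38. The annotation, the strand setting of the counting and the treatment of duplicate reads are not given in the sources used here. The labels and the study's methods name different kits, so levels were not compared between genes. Groups came from the sample labels.

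Genes with at least 10 counts over all libraries (31872) were scaled by TMM and fitted with 1 mean per group in edgeR 4.0.16 (R 4.3.3; robust quasi-likelihood, 12 residual degrees of freedom), with Benjamini-Hochberg adjustment over all of them. Alternatives were limma 3.58.1 (voom), DESeq2 1.42.0, RLE factors, library totals, other filters, a replicate block and left-out libraries. Replicate numbers pair the samples, since per the series' description a replicate held 1 stimulated and 1 unstimulated sample. Deviations from group means correlated by 0.314 to 0.619 between partners in HG3, 0.017 to 0.661 in MEC2 and 0.544 to 0.631 in PCL12. No source says that replicates were separate cultures, so P values measure the spread between these samples. Counts as deposited may include PCR copies, so depth overstates precision.

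Members and lists were chosen with earlier results of these data known. The named genes are the members, genes of the lists past an adjusted p of 0.05 or the DEG definition in a CpG contrast, otherwise the 3 of each list with the smallest P on average, and the 5 genes most like MYC by each measure. Positions are from GENCODE on GRCh38 and promoters from RefSeq (GRCh38.p14).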

Additional observations from a re-analysis of the deposited data

How the results depend on the processing

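Under the alternatives, 609 of 669 values of single members kept their direction and their side of an adjusted p of 0.05, 6 fell out of significance, 2 became significant and 52 changed sign, all 52 of values that had not passed the test. Without PCL12 replicates 2 and 3 and the mitochondria-rich libraries, a setting chosen after seeing the data, the Log2FC after CpG was -0.058 for MYC and 0.083 for MXD3 in HG3 and -0.10 for MNT and 0.025 for MLX on average, and the unstimulated level of MXD3 was 0.19 higher in MEC2 and 0.12 higher in PCL12 than in HG3 on the log2 scale. The mean Log2FC of MLX was 0.010 with library totals, 0.0025 with mitochondrial genes removed before scaling, 0.0042 with filterByExpr, 0.0125 with no filter and 0.007 without PCL12 replicates 2 and 3, and that of MXI1 was 0.063 with limma-voom. The cause of these changes was not tested.

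With each library left out in turn, the Log2FC after CpG in HG3 ran from -0.058 to 0.78 for MYC, from -0.94 to 0.083 for MXD3, from -0.49 to 0.061 for MXD4 and from 0.0014 (without unstimulated replicate 1) to 1.70 (without unstimulated replicate 2, with a nominal P under 0.05 that did not pass after adjustment) for MYCL. In MEC2 it ran from -0.084 to 0.34 for MYC, from -0.25 to 0.10 for MYCL, from -0.48 to 0.24 for MXD3 and from -0.42 to 0.077 for MXD4, and in PCL12 from -0.16 to 0.35 for MYC and from 0.85 to 1.53 for MYCL. The average ran from -0.48 (without MEC2 CpG replicate 2) to -0.094 (without HG3 unstimulated replicate 2) for MXD3, from -0.40 (without HG3 CpG replicate 3) to -0.14 (without PCL12 unstimulated replicate 1) for MXD4, from -0.11 to 0.0049 for MAX, from -0.070 to 0.16 for MXD1, from -0.26 to 0.060 for MXI1, from -0.0061 to 0.27 for MNT and from -0.046 to 0.0595 for MLX. For unstimulated levels, MYC ran from -0.77 to 0.072 and MXD3 from -0.82 to 0.19 in MEC2 against HG3. In PCL12 against HG3, MYC ran from -0.82 to 0.018 and MXD3 from -1.265 to -0.24. In PCL12 against MEC2, MYC ran from -0.32 to 0.12 and MNT from -0.18 to 0.25.

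The count of members called in PCL12 against HG3 was 0 to 1 with a library left out and 0 without PCL12 replicates 2 and 3. The replicate block left the counts of members past an adjusted p of 0.05 as they were, at 0 of 9 for CpG in each line, while it raised the count over all genes on average from 3 to 177. For MYC on average, the interval without the block reached from 0.840-fold to 1.54-fold, while the block gave a Log2FC of 0.25 (SE 0.12), and MYCL in HG3 rests on 4 to 24 counts per library.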
